A study of Mus musculus with 8 samples.

Results

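The Hox genes of the mouse lie in 4 clusters, and they were followed in clones of NIH3T3, an immortalised line of mouse embryonic fibroblasts. Members were the rows of the expression table whose symbol named a gene of the Hoxa, Hoxb, Hoxc or Hoxd cluster, and the cytosines of the methylation table within the bounds of these clusters. This gave 41 of 24062 listed genes, 39 of them protein-coding and 2 antisense (Hoxa11os and Hoxd3os1), and 5919 of 2361680 listed cytosines. The bounds in build mm10 were chr6:52155367-52260880 for Hoxa, chr11:96194316-96368254 for Hoxb, chr15:102921131-103036856 for Hoxc and chr2:74668225-74765142 for Hoxd.

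Control clones 2 and 3 carried a control vector, and clones 10 and 12 carried a plasmid that makes FLAG-tagged 14-3-3ε from the p3xFLAG-CMV-10 vector. 14-3-3ε belongs to a family of proteins that bind phosphorylated partners. Per the labels' protocols, the 14-3-3ε clones were single colonies picked under G418 at 800 µg/mL, and all clones grew in 10% fetal bovine serum. Each of the 4 clones was measured by RNA-seq and by reduced representation bisulfite sequencing (RRBS), a method that reads CpG-rich fragments cut with MspI. The question was what overexpressed 14-3-3ε does to methylation and RNA. Each deposited table compares 2 clones with 2 clones without single values, so neither spread nor depth can be shown, and the differences of single clones cannot be told apart from those of 14-3-3ε. The sign of neither comparison is stated, and positive values were read as higher in 14-3-3ε clones.

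Hox genes encode homeodomain transcription factors that give cells their position along the body axis. Genes at the end of a cluster that holds paralog group 1 act in the head and neck, and those at the other end, with group 13, act in the tail and the tips of the limbs. Fibroblasts keep part of this pattern in culture, so the set of active Hox genes is a record of where they came from. Silent Hox genes are usually held by Polycomb proteins at CpG islands that carry little DNA methylation.

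The cells had the RNA of fibroblasts. All 8 fibroblast markers had mean normalized counts of at least 4843, and 4 of them were higher in 14-3-3ε clones in the authors' deposited table, with log2 fold changes of 1.70 for Pdgfra, 1.36 for Pdgfrb, 0.98 for Col1a1 and 0.89 for Col1a2. At an adjusted p under 0.05, 6.15% of all tested genes were higher and 4.74% lower. For the 12 markers of epithelium, blood, endothelium, nerve and muscle, the mean normalized counts were at most 110 (Cd68) in the authors' deposited table. Des, a muscle marker with a mean of 58.9, fell by 1.28 on that log2 scale (adjusted p 0.00931, the authors' deposited table), and Myod1 had a mean of 0.250. The part of the fibroblast markers' change in the Hox results was not tested. The mouse gene of 14-3-3ε, Ywhae, had a log2 fold change of -0.03 (standard error 0.18, adjusted p 0.942) in the authors' deposited table, so it did not check the labels or the sign. In RNA from whole cultures, more RNA per cell and more cells that express a gene cannot be told apart.

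The promoters of 6 tested Hox genes are shown to let a reader see which of their CpGs the methylation table lists: the 5 genes of Hoxd and Hoxa called below, and Hoxd9. The called genes Hoxc5 and Hoxc6 had no entry in the promoter table. Each is the run of 250 bases before the start of a RefSeq transcript (GRCm38.p6, the assembly of mm10), written 5′ to 3′ on the strand of the gene. Capitals mark the CpGs at which the RRBS table lists a cytosine on either strand, and lower-case cg pairs were not listed. Hoxd3, Hoxd4, Hoxd8 and Hoxd9 are on the plus strand and Hoxa2 and Hoxa5 on the minus strand.
Hoxd3, chr2:74711743-74711992: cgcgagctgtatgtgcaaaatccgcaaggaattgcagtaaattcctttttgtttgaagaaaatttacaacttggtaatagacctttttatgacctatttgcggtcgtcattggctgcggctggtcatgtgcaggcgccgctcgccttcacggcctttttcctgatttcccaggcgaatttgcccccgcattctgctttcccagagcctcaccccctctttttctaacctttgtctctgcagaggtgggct
Hoxd4, chr2:74721728-74721977: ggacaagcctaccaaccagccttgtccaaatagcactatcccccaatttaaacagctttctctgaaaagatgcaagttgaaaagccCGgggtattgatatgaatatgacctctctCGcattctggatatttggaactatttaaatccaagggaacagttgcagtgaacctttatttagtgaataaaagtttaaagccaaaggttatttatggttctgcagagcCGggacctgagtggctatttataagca
Hoxd8, chr2:74704365-74704614: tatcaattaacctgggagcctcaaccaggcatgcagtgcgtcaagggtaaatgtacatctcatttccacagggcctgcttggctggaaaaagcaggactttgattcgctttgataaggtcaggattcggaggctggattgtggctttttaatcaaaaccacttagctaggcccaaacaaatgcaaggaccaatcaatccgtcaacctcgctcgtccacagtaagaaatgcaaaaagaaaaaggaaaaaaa
Hoxd9, chr2:74697513-74697762: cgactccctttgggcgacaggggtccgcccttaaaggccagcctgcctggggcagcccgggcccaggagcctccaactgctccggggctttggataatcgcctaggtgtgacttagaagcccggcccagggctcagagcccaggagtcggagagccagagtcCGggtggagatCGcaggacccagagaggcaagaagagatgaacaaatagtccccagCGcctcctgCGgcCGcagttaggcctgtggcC
Hoxa2, chr6:52164832-52165081: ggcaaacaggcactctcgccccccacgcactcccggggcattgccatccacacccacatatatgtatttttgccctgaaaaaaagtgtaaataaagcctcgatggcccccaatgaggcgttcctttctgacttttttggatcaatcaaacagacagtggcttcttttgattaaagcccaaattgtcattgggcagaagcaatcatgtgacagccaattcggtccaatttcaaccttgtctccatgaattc
Hoxa5, chr6:52204588-52204837: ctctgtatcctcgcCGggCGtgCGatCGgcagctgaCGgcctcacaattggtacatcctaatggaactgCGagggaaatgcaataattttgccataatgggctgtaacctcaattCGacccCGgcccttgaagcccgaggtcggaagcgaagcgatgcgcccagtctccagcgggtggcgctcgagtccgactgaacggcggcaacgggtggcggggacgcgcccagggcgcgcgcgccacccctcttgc

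These sequences differ in how much of them was read. None of the 12 CpGs of Hoxd3, the 6 of Hoxd8 or the 6 of Hoxa2 was listed, while all 3 of Hoxd4 and 8 of 28 of Hoxa5 were. In Hoxd9, 6 CpGs were listed, of which 1 is cut by the end of the sequence. That CpG is not among the 13 whole CpGs of Hoxd9. The median over all 32851 RefSeq promoters was 6 CpGs in the same length. CCGG, the site of MspI, which reads the same on both strands, was found in 47.1% of all promoters, 2 times in that of Hoxd4, 4 times in that of Hoxd9, 2 times in that of Hoxa5, 1 time in that of Hoxa2 and not in those of Hoxd3 and Hoxd8. AGGTCA, a half-site of nuclear receptors such as those of retinoic acid, was searched on both strands. It was found 1 time in each of the promoters of Hoxd3, Hoxd4 and Hoxd8, and in 14.0% of all promoters. TGATNNAT, a site that Hox proteins bind with Pbx cofactors, was searched on both strands and found in the Hoxa2 promoter among these 6 and in 7.68% of all promoters. Of the 41 members, 24 had an entry in this table, with 26 promoters in all.

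Expression of Hox genes was limited to parts of the clusters. Of the 41 members, 18 had a mean normalized count high enough for an adjusted p in the authors' deposited table, 16 had a lower mean and 7 were listed at 0. The mean normalized count is the deposited average over all libraries, not divided by transcript length, so it does not rank genes against each other. All 12 genes of paralog groups 10 to 13, which pattern lumbar to tail levels and the outer limb, were without an adjusted p. Of these, 5 were listed at 0, and Hoxd10 had the largest mean, 18.1, in the authors' deposited table. Of the 19 genes of groups 4 to 9, 13 were tested, and of the 8 genes of groups 1 to 3, 5 were tested.

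**Figure D1:**
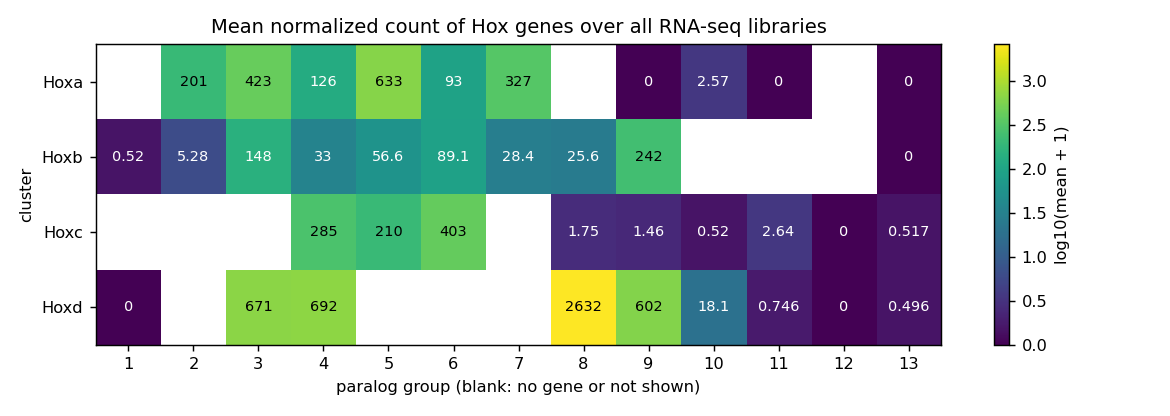
Mean normalized count of protein-coding Hox genes over all RNA-seq libraries, by cluster (rows) and paralog group (columns), coloured on a log10 scale of the mean plus 1; blank cells have no gene or no value shown. Columns 10 to 13 hold no mean above 18.1, and in Hoxd the means drop from 602 for Hoxd9 to 18.1 for Hoxd10 and 0.746 for Hoxd11.

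Along each cluster the listed levels changed within a few neighbours. In Hoxa, Hoxa2 to Hoxa7 had means from 93.0 (Hoxa6) to 633 (Hoxa5), the next gene, Hoxa9, was listed at 0, and Hoxa10 had a mean of 2.57 in the authors' deposited table. In Hoxc, the neighbours Hoxc4, Hoxc5 and Hoxc6 had means of 285, 210 and 403, and Hoxc8, the next gene, had 1.75 in the authors' deposited table. In Hoxd, the run from Hoxd3 to Hoxd9 had means from 602 to 2632, while Hoxd1 on its other side was listed at 0 in the authors' deposited table. Hoxb had its means between 25.6 (Hoxb8) and 242 (Hoxb9) from Hoxb3 to Hoxb9, with 5.28 for Hoxb2 and 0.520 for Hoxb1 beyond that run in the authors' deposited table. Exact zeros may hide very low levels.

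In the comparison of 14-3-3ε clones with control clones, 7 of the 18 tested Hox genes were higher and none was lower at an adjusted p under 0.05. Over all 11482 tested genes, 6.15% were called higher and 4.74% lower (10.9% in all). With a log2 fold change of at least 1 as well, 3 Hox genes were higher, against 2.88% of all tested genes. The genes that rose were Hoxa2 and Hoxa5, Hoxc5 and Hoxc6, and Hoxd3, Hoxd4 and Hoxd8. The median log2 fold change of the 18 was 0.56, against -0.00273 over all tested genes, and 15 of the 18 had a positive value, against 49.8% of all tested genes. Neighbouring Hox genes share control regions and the spans of some overlap, so the 18 are not independent. Of the 34 Hox genes with a deposited p, 11 had an unadjusted p under 0.05, among them Hoxb6 and Hoxb7 with negative values. These 34 include genes outside the 18, such as Hoxb7. The share of all genes at that cut was not counted, so the shares above are no background for it.

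The Hoxd genes changed most. Hoxd3, which patterns the upper cervical vertebrae, rose with a log2 fold change of 1.79 (95% interval 1.37 to 2.21), standard error 0.21 and adjusted p 2.58e-14 in the authors' deposited table. That is a 3.46-fold higher level, and its adjusted p was the 23rd smallest of all tested genes. Hoxd4, another gene of the neck vertebrae, which retinoic acid can induce, rose by 1.54 (1.11 to 1.98) on the log2 scale (adjusted p 8.83e-10, the authors' deposited table). Hoxd8, a gene of the trunk, rose by 1.11 (0.72 to 1.49) on the log2 scale (adjusted p 1.96e-06, the authors' deposited table). Hoxd9, which acts in the upper arm, had a log2 fold change of 0.69 (0.19 to 1.19), adjusted p 0.0589, by the authors' deposited table and was not called. Intervals here are 95% normal intervals from the deposited standard error.

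The annotated span of Hoxd4 lies inside that of Hoxd3, and reads may have been assigned to either gene. The antisense gene Hoxd3os1 overlaps the start of Hoxd3 and had a log2 fold change of 0.19 (standard error 0.40) at a mean of 23.7 in the authors' deposited table. The RNA kit marks strand, per the labels' protocols, but the sources used here do not give the strand setting of the counting. Without the 7 tested genes whose spans overlap another Hox gene, 4 of 11 were higher, namely Hoxa2, Hoxc5, Hoxc6 and Hoxd8. Further along the cluster, Hoxd10, Hoxd11 and Hoxd13 had means from 0.496 to 18.1 and log2 fold changes from -0.03 to 0.29 in the authors' deposited table. Hoxd12 was listed at 0. The deposited standard error was small at the lowest means, 0.12 for Hoxd13 against 0.37 for Hoxb5 at a mean of 56.6. Fold changes near 0 in genes with almost no reads therefore do not show that their levels were stable.

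In Hoxa, 2 of 7 tested genes were called. Hoxa5, which is needed for the lung and for vertebrae at the base of the neck, rose by 0.87 (0.40 to 1.34) on the log2 scale (adjusted p 0.00550, the authors' deposited table). Hoxa2, the selector gene of the second pharyngeal arch, rose by 0.83 (0.26 to 1.41) on the log2 scale (adjusted p 0.0438, the authors' deposited table). That call ended when p-values were adjusted over every gene with a p (adjusted p 0.0659). Hoxa3, which the thymus and parathyroid need, had a log2 fold change of 0.65 (0.12 to 1.17), adjusted p 0.106, by the authors' deposited table. Its span holds those of Hoxa4, Hoxa5 and Hoxa6, so reads of these 4 genes may be mixed. Hoxa4 was at 0.05 (-0.63 to 0.73), Hoxa6 at 0.23 (-0.45 to 0.91) and Hoxa7 at 0.29 (-0.19 to 0.76) on a log2 scale in the authors' deposited table. Hoxa5 was thus called while Hoxa4 and Hoxa6 beside it were not, and the difference between them was not tested.

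In Hoxc, 2 of 3 tested genes were called. Hoxc5 rose by 0.93 (0.32 to 1.54) on the log2 scale (adjusted p 0.0329, the authors' deposited table). Hoxc6, a gene of the thoracic level, rose by 0.77 (0.31 to 1.23) on the log2 scale (adjusted p 0.0151, the authors' deposited table). Hoxc4 had a log2 fold change of 0.48 (-0.08 to 1.04), adjusted p 0.301, by the authors' deposited table. These 3 genes are neighbours in the end of the cluster that holds its lowest group numbers. From Hoxc8 to Hoxc13 the means were at most 2.64 (Hoxc11), and Hoxc12 was listed at 0 in the authors' deposited table.

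In Hoxb, none of 4 tested genes was called, by an adjusted p under 0.05 or under 0.1. Hoxb9, which acts with its paralogs on the ribs, had a log2 fold change of -0.22 (-0.96 to 0.51), Hoxb5 of -0.07 (-0.79 to 0.66) and Hoxb3 of 0.01 (-0.61 to 0.64) in the authors' deposited table. Hoxb6 had a log2 fold change of -0.85 (-1.57 to -0.13), with p 0.0200, adjusted p 0.119, by the authors' deposited table. Its neighbour Hoxb7 had -0.94 (-1.71 to -0.17) with a p of 0.0168 at a mean of 28.4, too low for an adjusted p in the authors' deposited table. Hoxb8, next to Hoxb7, had 0.40 (-0.33 to 1.12) in the authors' deposited table. The upper bounds of Hoxb3 (0.64), Hoxb5 (0.66) and Hoxb9 (0.51) lie below 0.77, the smallest log2 fold change among the called Hox genes, that of Hoxc6. Smaller changes in either direction stay within their intervals. The interval of Hoxc6 itself, 0.31 to 1.23, overlaps those of Hoxb3, Hoxb5 and Hoxb9, so no separation is shown. Whether Hoxb differs from the other clusters was not tested.

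**Figure D2:**
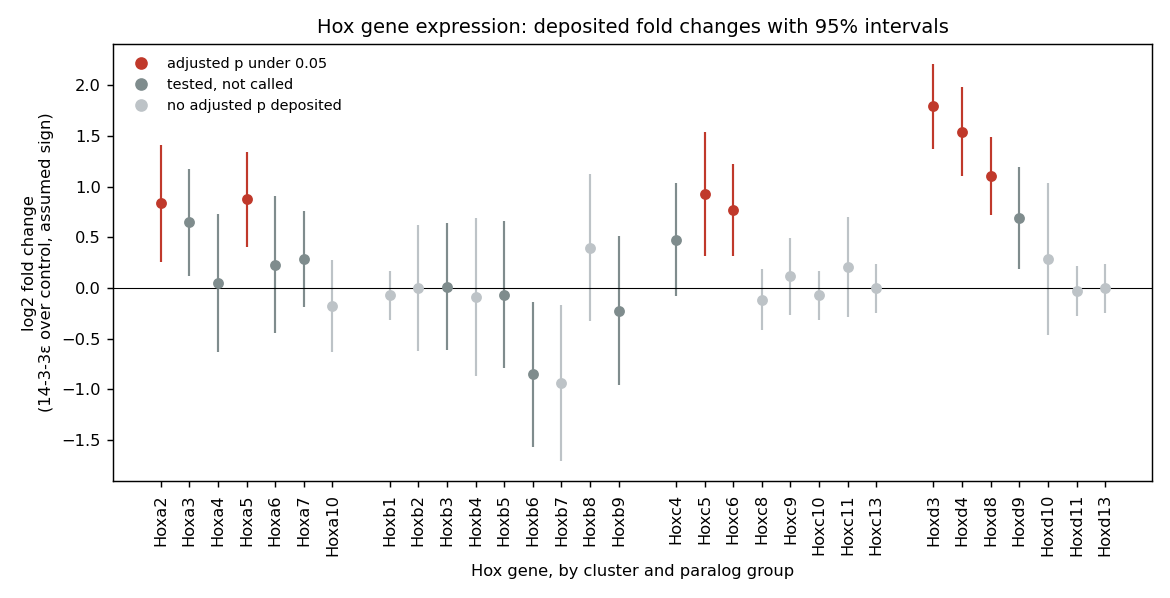
Deposited log2 fold change of protein-coding Hox genes with reads (points) and its 95% interval (bars), ordered by cluster and paralog group; red marks an adjusted p under 0.05. The 7 red points lie between 0.77 (Hoxc6) and 1.79 (Hoxd3), and none is in Hoxb, where Hoxb6 and Hoxb7 have the lowest values, -0.85 and -0.94. Narrow intervals near 0 at genes with almost no reads do not show stable levels.

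Other RNAs made inside the clusters were mostly near 0. RefSeq places 30 further genes within the bounds, of which 12 were listed and 2 tested. Mira, a long non-coding RNA beside Hoxa7, had a log2 fold change of 0.34 (standard error 0.26, adjusted p 0.446), and Gm53, a non-coding RNA upstream of Hoxb9, had -0.48 (0.37, adjusted p 0.452) in the authors' deposited table. Hotair, a long non-coding RNA of the Hoxc cluster studied for its ties to Polycomb, had a mean of 7.52 and a log2 fold change of 0.31 in the authors' deposited table. Haglr, in the Hoxd cluster, had a mean of 0.250 in the authors' deposited table.

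The clusters also carry microRNA genes, shown here since the same seed recurs in several clusters. Mature sequences from RefSeq (GRCm38.p6) are written 5′ to 3′ with the seed, bases 2 to 8, in capitals.
mmu-miR-10a-5p, Hoxb: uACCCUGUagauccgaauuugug
mmu-miR-10b-5p, Hoxd: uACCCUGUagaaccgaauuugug
mmu-miR-196a-5p, Hoxb and Hoxc: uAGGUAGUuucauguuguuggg
mmu-miR-196b-5p, Hoxa: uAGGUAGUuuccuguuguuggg
The seed of miR-10 is ACCCUGU in Hoxb and Hoxd, and that of miR-196 is AGGUAGU in Hoxa, Hoxb and Hoxc. Targets of miR-196 include Hox transcripts such as that of Hoxb8. Libraries with inserts of about 200 bp do not measure mature microRNAs. Reads at the genes were few, with a mean of 16.2 for Mir196a-1, 2.57 for Mir10a and 0.478 for Mir10b, while Mir196a-2 and Mir196b were listed at 0 in the authors' deposited table. Mir196a-1 lies between Hoxb13 and Hoxb9 and had a log2 fold change of -0.69 (p 0.0764, no adjusted p) in the authors' deposited table.

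Genes that work with Hox proteins or control them were read from lists. Over all tested genes 6.15% were higher and 4.74% lower, and counts below are to be read against these shares. Of 9 cofactor genes, all tested, 2 rose and none fell. Meis1, whose product binds DNA beside Hox proteins, rose by 0.82 (standard error 0.21, adjusted p 0.00208) and Pknox2 by 1.11 (0.39, adjusted p 0.0443) on a log2 scale in the authors' deposited table. In the authors' deposited table Meis2 was at -0.55 (adjusted p 0.186) on that scale. Pknox2 had a mean of 40.3, near 33.1, the smallest mean of a tested gene. Its deposited p (0.00454) was above that of Hoxa2 (0.00446). The Pknox2 call therefore also ended when p-values were adjusted over every gene with a p. Of 31 Polycomb genes, none rose and 1 fell: Pcgf6, a subunit of a variant Polycomb complex, with a log2 fold change of -1.09 (standard error 0.25, adjusted p 0.000479) in the authors' deposited table. The median of the list was -0.0101. Of 13 Trithorax and histone demethylase genes, none rose and 1 fell: Wdr5, a core subunit of the complexes that methylate histone H3 at active genes, with -0.61 (0.20, adjusted p 0.0259) in the authors' deposited table. The median was -0.16.

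Of 17 listed genes of retinoid signalling, Cdx factors, Gdf11 and Ctcf, 7 were tested, of which 1 rose and none fell. No Cdx gene was among the tested ones, and the largest Cdx mean was 0.763 (Cdx1) in the authors' deposited table. Gdf11, a secreted factor that sets posterior Hox domains in the embryo, rose by 1.11 (standard error 0.27, adjusted p 0.00137) on a log2 scale in the authors' deposited table. The retinoic acid receptor gene Rarg had -0.54 (adjusted p 0.0621), and the insulator factor gene Ctcf 0.02 (adjusted p 0.970) in the authors' deposited table. Among the 11 tested flanking genes of the clusters, 1 rose and none fell: Skap2, beside the Hoxa cluster, by 0.66 (0.21, adjusted p 0.0240) on a log2 scale in the authors' deposited table. Beside the Hoxd cluster, Mtx2 had 0.13 (adjusted p 0.753) and Lnp -0.55 (adjusted p 0.0582) in the authors' deposited table. None of 13 tested homeobox genes outside the clusters was called, with Dlx2 nearest at -0.64 (adjusted p 0.0513) in the authors' deposited table.

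In the comparison of methylation, the Hox clusters held both higher and lower cytosines, and most in Hoxb. With calls at q under 0.05, 98 of its 1482 listed cytosines were lower and 53 higher in the authors' deposited table. Over the whole table, 4.74% of cytosines were called, 2.83% lower and 1.92% higher. The share was 10.2% in Hoxb, 7.18% in Hoxc (90 of 1254), 4.39% in Hoxa (70 of 1596) and 2.08% in Hoxd (33 of 1587). The mean difference was -2.55 percentage points in Hoxb, -0.38 in Hoxc, -0.46 in Hoxa and 0.51 in Hoxd, against -0.49 over all cytosines (averaged from the authors' deposited table). Only differences are listed. Without levels the table does not say whether a stretch was methylated at all. The q-values may measure read sampling and not the spread between clones, since the sources used here do not give how clones entered that test.

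The order of the 4 clusters by density of listed cytosines was the reverse of that by called share. There were 8.52 listed cytosines per kb in Hoxb, 10.8 in Hoxc, 15.1 in Hoxa and 16.4 in Hoxd. The part of density or coverage in the called share was not tested. Within 100 kb on each side, 8.54% of 492 cytosines were called around Hoxb, 9.22% of 293 around Hoxc, 10.8% of 435 around Hoxa and 4.15% of 506 around Hoxd. The flanks of Hoxa, Hoxc and Hoxd thus had a higher called share than the cluster itself, and those of Hoxb a lower one. None of these differences was tested.

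**Figure D3:**
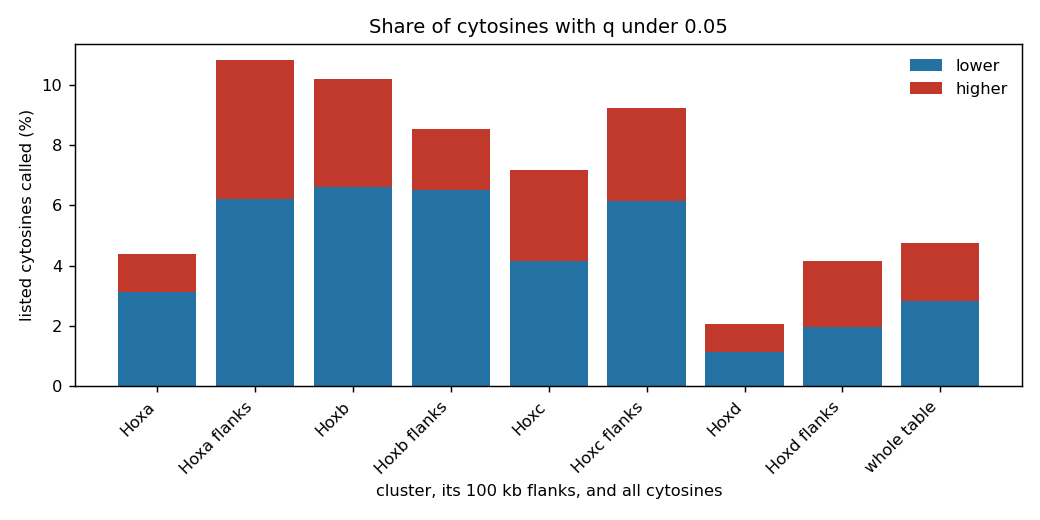
Share of listed cytosines with q under 0.05 (vertical axis, percent), split into lower (blue) and higher (red), for each Hox cluster, for its flanks of 100 kb on each side and for the whole table. Bars reach 10.2% for Hoxb and 2.08% for Hoxd, against 4.74% for the whole table.

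Strands of the same CpG differed in how well they matched. Both strands were listed at 677 CpGs in Hoxb, 579 in Hoxc, 715 in Hoxa and 716 in Hoxd. Across CpGs, which are not independent replicates, the differences on the 2 strands correlated at r = 0.51 in Hoxb, 0.52 in Hoxc, 0.30 in Hoxa and 0.11 in Hoxd. Where a called cytosine had its partner listed, the partner had the same sign at 125 of 140 in Hoxb, 80 of 88 in Hoxc, 48 of 58 in Hoxa and 18 of 32 in Hoxd. The few calls in Hoxd were therefore matched least often, but 9 of them lay in a single stretch inside Hoxd9, described below. There the calls were lower on the plus strand, and all 14 listed minus-strand cytosines had positive differences.

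In Hoxd, called cytosines were few. Of its 48 windows of 1 kb with listed cytosines, 34 had no called cytosine. No window was called, by a rule that asked for at least 5 listed cytosines, at least 3 called, calls at 10% or more and none in the other direction. Over all windows with at least 5 listed cytosines, this rule called 2.38% lower and 1.07% higher. Window means with at least 5 listed cytosines ran from -4.98 to 5.09 points (averages from the authors' deposited table). Within 1000 bp of the start of Hoxd8, 153 cytosines were listed and 1 was called, with a mean of -0.29 points averaged from the authors' deposited table. At the start of Hoxd3, 1 of 22 was called (mean 0.32 points), and at that of Hoxd4 none of 14 (mean 0.80 points), averaged from the authors' deposited table. At the other end, at the starts of Hoxd13 and Hoxd12, 2 of 110 and 2 of 94 cytosines were called, with means of 1.32 and -0.83 points averaged from the authors' deposited table. At the outer start of Hoxd10, which lies inside the Hoxd11 span, 5 of 37 were called (13.5%), 4 higher and 1 lower. Their differences reached 32.1 points in the authors' deposited table, and within 2000 bp 5 of 155 were called. Before the inner RefSeq start of Hoxd10, at chr2:74691641-74691890, 2 of 8 listed cytosines were called higher and none lower. Between Hoxd3 and Hoxd1, 4 of 189 were called.

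The largest group of calls in Hoxd, just inside Hoxd9, lay on a single strand. From chr2:74698005-74698132, 9 cytosines of the plus strand had differences of -8.29 to -7.50 points in the authors' deposited table. The 14 plus-strand cytosines of this stretch had a mean of -7.65 points and their 14 partners on the minus strand a mean of 4.23 points with none called, averaged from the authors' deposited table. Differences of this size with opposite signs on the 2 strands of the same CpGs left the mean of all 161 cytosines at the Hoxd9 start at 0.81 points, averaged from the authors' deposited table.

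Hoxa had called cytosines spread along its length, in small groups. In the part from Hoxa2 to Hoxa7, where the genes were expressed, calls were few and mostly lower. No cytosine was called within 1000 bp of the starts of Hoxa2 (52 listed, mean 0.16 points), Hoxa5 (57, mean 0.92) and Hoxa6 (62, mean 2.70), averaged from the authors' deposited table. At the start of Hoxa4, 11 of 118 were lower and 1 higher, the most at any Hoxa start. All 11 were on the plus strand, where 62 cytosines of the 1 kb window had a mean of -8.59 points, against 7.51 points over its 41 minus-strand cytosines, averaged from the authors' deposited table. The span of Hoxa10 held 10 lower and 9 higher cytosines among 230, while its far start had 3 higher and none lower among 48. Those 3 lay on the minus strand, which had a mean of 8.09 points in that 1 kb window. The plus strand had 0.05 points, averaged from the authors' deposited table. From Hoxa11 to Hoxa13 there were 7 lower and 8 higher among 238. A single 1 kb window was called, inside the Hoxa3 span, where 3 cytosines from chr6:52185403-52185470 had differences of -7.84 to -2.75 points in the authors' deposited table. All 3 were on the minus strand.

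Along Hoxc, higher and lower calls alternated over short distances. At the group 13 end, 8 of 137 cytosines of the Hoxc13 span, a gene of hair and nail, were called, 4 each way. Hoxc12 to Hoxc11, the stretch with Hotair, held 13 lower and 5 higher among 193. In that stretch, 3 cytosines within Hotair had differences of -17.0 to -15.1 points, and between Hoxc13 and Hoxc12, 3 had -18.3 to -16.6 points, in the authors' deposited table. Inside Hoxc10, 2 windows next to each other were called in opposite directions. At chr15:102967778-102967805, 3 cytosines had differences of -32.0 to -27.5 points, and at chr15:102968756-102968820, 3 were higher by 15.9 to 40.1 points in the authors' deposited table. Upstream of Hoxc6, 3 cytosines of adjacent CpGs at chr15:102996734-102996737 were higher by 17.6 to 40.6 points in the authors' deposited table.

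Starts of the Hoxc genes that rose differed in what was read. At the start of Hoxc6, 5 of 50 cytosines were lower and none higher (mean -2.95 points), while within 2000 bp 6 of 64 were lower and 3 higher (mean -0.55 points), averaged from the authors' deposited table. At that of Hoxc5, 17 cytosines had a mean of -7.91 points with none called, and the 7 within 500 bp a mean of 6.64 points, averaged from the authors' deposited table. No cytosine was listed within 1000 bp of the outer start of Hoxc4. Before its inner RefSeq start, at chr15:103034145-103034394, 1 of 6 listed cytosines was called, higher, and the mean was 10.6 points averaged from the authors' deposited table. In all, 6 windows of 48 with at least 5 listed cytosines were called in Hoxc, 4 lower and 2 higher.

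Hoxb had the most called windows, 7 lower and 2 higher of 63 with at least 5 listed cytosines. The window with most calls lay inside Hoxb6. There, 12 of 32 listed cytosines were higher and none lower, with a mean of 12.3 points averaged from the authors' deposited table. The called positions, chr11:96293132-96293480, were higher by 18.8 to 43.3 points and lay on both strands, 4 on plus and 8 on minus, in the authors' deposited table. Over the whole Hoxb6 span, 87 listed cytosines had a mean of 0.91 points and a median of -0.58 points, taken from the authors' deposited table. The higher values were thus limited to a part of the gene. Hoxb6 is the gene that had a log2 fold change of -0.85 without being called.

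The next genes towards the group 1 end had values below 0. Between Hoxb6 and Hoxb5 the 38 listed cytosines had a mean of -11.2 points with 2 called lower, averaged from the authors' deposited table. In the Hoxb5 span, 7 of 43 were lower and none higher (mean -10.1 points), and the window from 96304001 was called lower with 5 of 22, averaged from the authors' deposited table. Within 1000 bp of the start of Hoxb5, 27 cytosines had a mean of -12.8 points, and none was called in the authors' deposited table. The Hoxb5 start thus had the lowest mean of any Hox start.

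In the long span of Hoxb3, 27 of 387 cytosines were lower and 15 higher. Its called stretches were short: 5 called cytosines at chr11:96340839-96340887 had differences of -38.9 to -24.8 points, and 4 at chr11:96344527-96344531 of -47.9 to -34.4 points, in the authors' deposited table. At chr11:96339911-96339953, 3 of 4 listed cytosines were called, at -52.6 to -28.5 points, in the authors' deposited table, too few listed to be counted as a window. In Hoxb9, 11 of 150 were lower and 1 higher, among them 5 at chr11:96274662-96274747, with differences of -35.6 to -15.7 points in the authors' deposited table. At the group 1 end, 3 cytosines just after the start of Hoxb1 were higher by 22.1 to 36.5 points in the authors' deposited table.

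Hoxb13, a gene of the prostate and tail that stands apart from the rest of its cluster, had calls at its start. Within 1000 bp of it 10 of 47 cytosines were called, all lower, and the mean was -9.39 points averaged from the authors' deposited table. At chr11:96194322-96194415, 8 of them had differences of -32.8 to -12.3 points, 5 on the plus and 3 on the minus strand, in the authors' deposited table. The gene itself was listed at 0 in RNA. Between Hoxb13 and Hoxb9, 27 of 382 cytosines were lower and 7 higher.

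**Figure D4:**
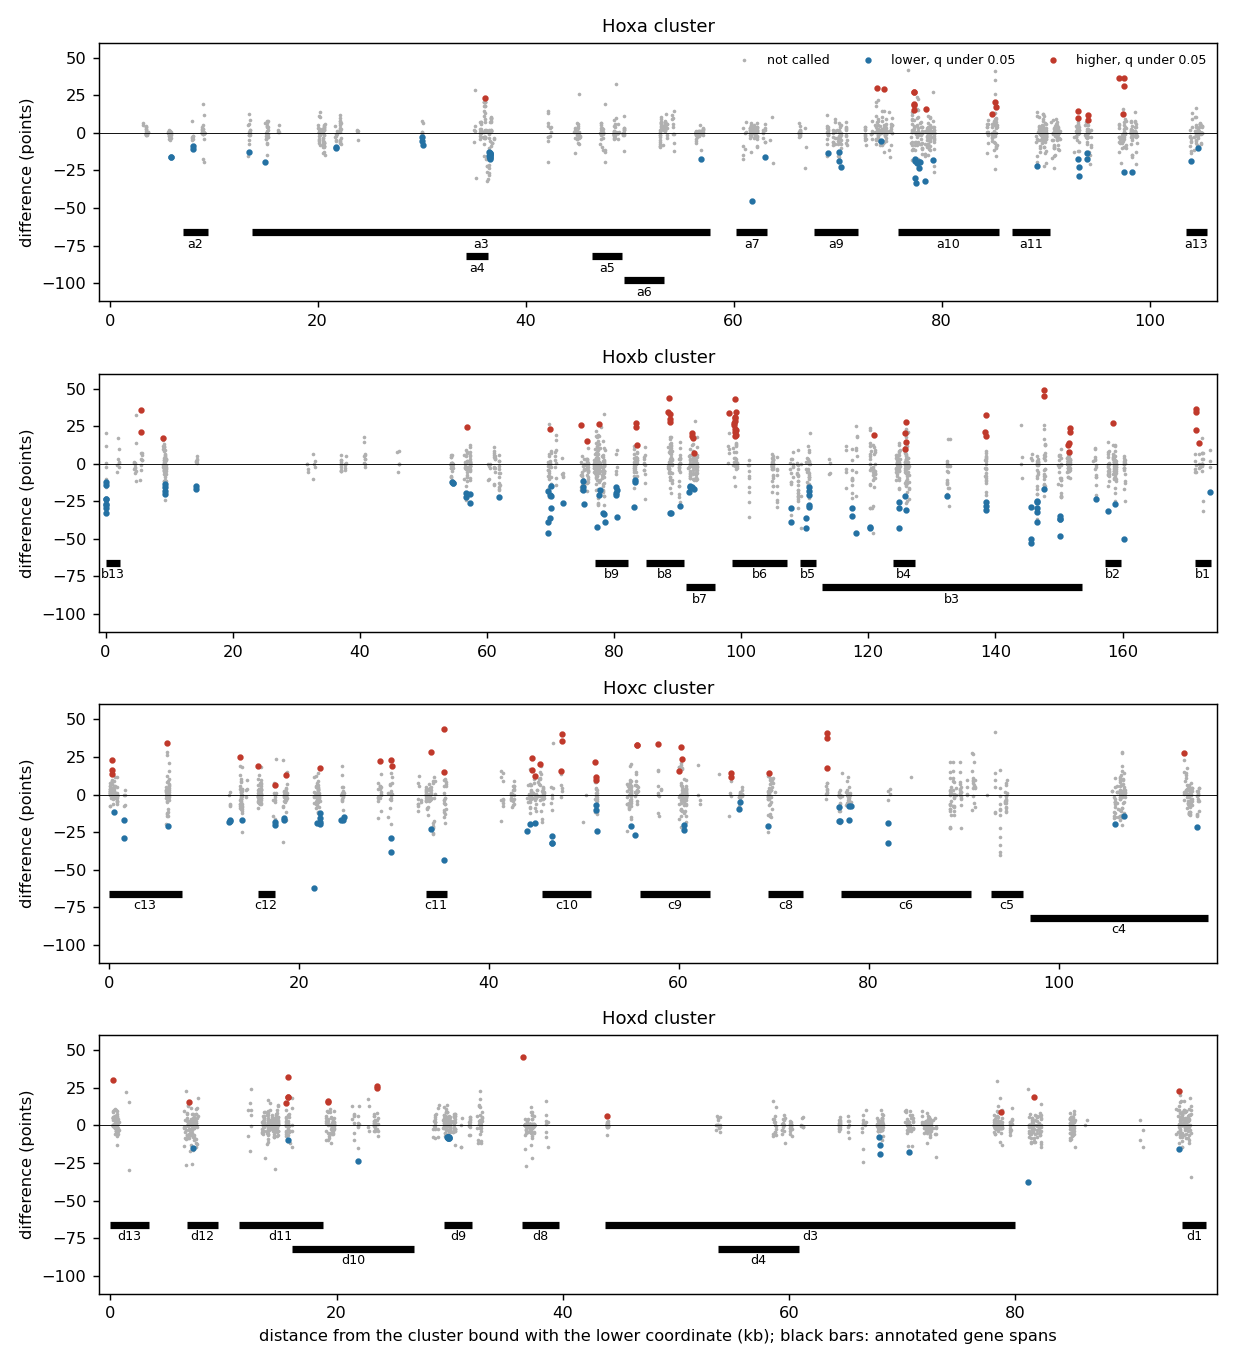
Methylation difference of every listed cytosine (points, vertical axis in percentage points) against the distance from the lower bound of each cluster in kb; blue and red mark cytosines with q under 0.05 that were lower or higher, and black bars are annotated gene spans of the genes shown. Hoxd is nearly free of coloured points (33 of 1587), and in Hoxb (151 of 1482) the red group at Hoxb6 stands beside blue groups over Hoxb5 and Hoxb3.

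Expression and methylation were set side by side at gene starts, as a description. Around the starts of the 7 Hox genes that rose, 7 of 365 listed cytosines were called (1.92%), 5 lower and 2 higher, against 4.74% over all cytosines, with a mean of -0.68 points averaged from the authors' deposited table. Around those of the 11 tested genes that were not called, 40 of 564 were (7.09%), with a mean of 0.03 points averaged from the authors' deposited table. None of the 7 genes that rose is in Hoxb, the cluster with the largest called share, while 4 of these 11 are. Single genes, with counts given above, also weigh on the pools: Hoxd8 and Hoxc6 on the first, Hoxa4, Hoxb6 and Hoxd9 on the second. The lower calls at Hoxa4 and Hoxd9 lay on the plus strand, while the minus strand there had positive means, as given above. The part of cluster and of single genes in these shares was not tested. The 7 genes listed at 0 had 16 of 602 (2.66%), and the 14 coding genes with reads but no adjusted p 43 of 655 (6.56%). Among genes that rose, gene means ran from -7.91 points at Hoxc5 to 0.92 at Hoxa5, averaged from the authors' deposited table. Hoxb6 had the highest start mean (12.2 points, against 0.91 over its span) and the lowest log2 fold change of the tested genes. Hoxb5 had the lowest start mean (-12.8 points) with a log2 fold change of -0.07, from the authors' deposited table. In the Hoxd genes, where expression differed most, start means lay between -0.29 and 0.81 points for the 4 tested genes, averaged from the authors' deposited table. The 0.81 of Hoxd9 averages over a stretch with opposite signs on the 2 strands. None of the CpGs in the promoters of Hoxd3 and Hoxd8 shown above was listed. These means therefore do not show that methylation at the Hoxd starts was unchanged.

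**Figure D5:**
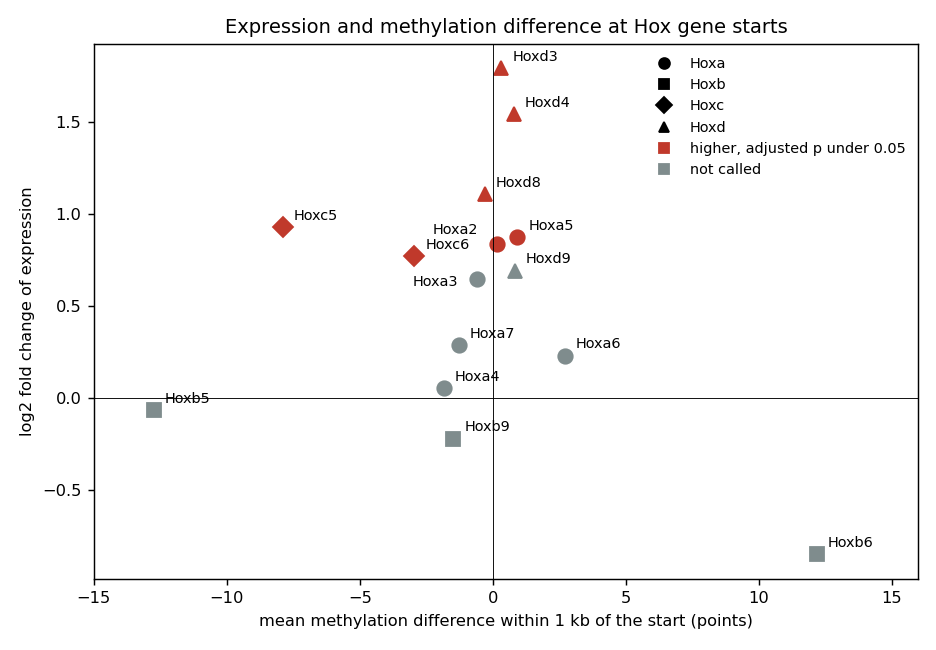
Log2 fold change of each tested Hox gene (vertical axis) against the mean methylation difference within 1 kb of its start in percentage points (horizontal axis), for the 15 genes with at least 5 listed cytosines there; marker shapes are clusters and red marks an adjusted p under 0.05. Hoxd3, Hoxd4 and Hoxd8 sit near 0 on the horizontal axis, and Hoxb6 stands alone at 12.2 points and -0.85.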

How the data were processed

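Methylation (RRBS) and RNA-seq were compared between 2 control clones and 2 14-3-3ε clones. Trim Galore, Bismark, Bowtie2, methylKit, TopHat2, HTSeq and DESeq2 and build mm10 are named in the submitters' processing notes, with neither versions nor settings. For RNA-seq the authors deposited a mean signal per gene, read here as DESeq2's mean normalized count, a log2 fold change with its standard error, a score equal to the fold change over that error, a p-value and an adjusted p-value. Per the file headers, each RRBS cytosine has its p-value, its q-value and a methylation difference, read here as percentage points. Depth per sample is unknown, since neither table gives counts.

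Here 253 duplicate lines were removed from the RRBS table, and calls were made at an adjusted p or q under 0.05. Benjamini-Hochberg adjustment over the 11482 tested genes returned the deposited values to within 2.18e-15. Cytosines were averaged without weights over 1 kb windows, gene spans and 1000 bp on each side of gene starts. A start is the end of the RefSeq span that faces group 13, the side from which Hox genes of a cluster are transcribed. The RefSeq promoters of Hoxb8, Hoxc4 and Hoxd10 lie further inside their spans, and Hoxa10 and Hoxd11 have an inner promoter as well. For these genes the start used here can lie kilobases from a RefSeq promoter. Gene positions came from RefSeq (GRCm38.p6). Of 275930 listed cytosines in RefSeq promoters, 99.9% stood on a CpG, so builds match. Leaving out single clones was not possible. Every tested Hox gene, with 1 not reported here but kept in the counts, the called members of the other lists and up to 5 called windows a cluster were to be named. The windows at chr11:96344001-96345000 and 96365001-96366000, 1 shorter stretch in Hoxb3, genes that were not called in other lists and the strand comparisons were chosen after their values were seen. The members and lists were chosen with earlier results of these data known. Window calling and adjustment were tested on simulated data. Python 3.11.15 with pandas 2.3.3 was used.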

Additional observations from a re-analysis of the deposited data

How the results depend on the processing

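The count of 7 higher Hox genes became 4 at an adjusted p under 0.01 (3.60% of all tested genes), 3 with a log2 fold change of at least 1 as well (Hoxd3, Hoxd4 and Hoxd8; 2.88% of all tested genes) and 4 without overlapping genes (6.13%), an alternative chosen after seeing the data. It was 8 at an adjusted p under 0.1 (8.22%) and 6 with no filter on low values (3.48%), and none was lower under any of these. Called shares fell under stricter rules by construction. At q under 0.01, lower and higher shares were 1.19% and 0.752% in Hoxa, 3.64% and 2.16% in Hoxb, 2.23% and 1.83% in Hoxc, and 0.252% and 0.315% in Hoxd, against 1.49% and 0.981% over all cytosines. With a difference of at least 25 points they were 0.439% and 0.439% in Hoxa, 3.51% and 1.62% in Hoxb, 0.797% and 0.957% in Hoxc, and 0.0630% and 0.315% in Hoxd, against 0.830% and 0.513%. With at least 10 points, the lower share of Hoxd was 0.441%, against 2.49%. With each CpG counted once, the mean difference was -0.80 points in Hoxa and -0.24 in Hoxc. At gene starts the mean of Hoxa, -0.0252 points, was -0.20 within 500 bp, -0.19 within 2000 bp and 0.16 with starts of the promoter table, also chosen after seeing the data. That of Hoxb, -1.72 points, was -3.42 within 500 bp and 0.42 with the promoter table, over 63 cytosines. That of Hoxc, -0.51 points, was 0.50 within 500 bp and -0.17 within 2000 bp. For single genes, 17 of 38 start means moved by over 1.5 times or changed sign within 2000 bp, and 11 of 33 within 500 bp. The cause of these changes was not tested. No paired analysis was possible because the clone numbers differ between the groups compared and neither table has values per clone, so no clone could be left out. Unknown coverage limits every methylation value.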
